A study of Mus musculus with 6 samples.

Results

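The comparison described here set 1 small RNA library of Wt1 knockout (KO) mouse embryonic stem cells, sampled after 12 h of doxycycline (dox), against 1 library of untreated Wt1 KO cells. It asks which mature microRNAs (miRNAs) differ soon after an inducible Wt1 gene is switched on in cells that lack their own Wt1. Members were all mature miRNA entries whose mean count of uniquely matched reads over these 2 libraries was at least 50, which held for 288 of the 1899 entries in the tables. The whole study has 6 libraries of 129/Ola embryonic stem cells, with 1 library for each group: wild type (WT) and Wt1 KO, each untreated or with retinoic acid, and Wt1 KO after 12 h or 24 h of dox at 1 µg/ml. The libraries with retinoic acid served here only for scaling. The untreated WT library and the library after 24 h of dox are set beside the members' values where they help to read them. Cultures were kept on gelatin in medium with fetal calf serum and leukemia inhibitory factor (LIF), and no feeder cells are named.

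Several limits of the model bear on every value below. The Wt1 mRNA is not seen by small RNA sequencing, and knockout and induction could not be checked. Which clone carries the inducible Wt1 is not stated in the labels, and the untreated Wt1 KO cells may be another line than the dox-treated ones. No library of dox-treated cells without the transgene is used here, so effects of dox itself, of the line and of Wt1 cannot be told apart. With 1 library per side there is no test, and each difference is between 2 libraries, not between conditions.

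A miRNA is a short RNA cut from a hairpin in a longer transcript. Drosha frees the hairpin in the nucleus, Dicer cuts off its loop in the cytoplasm, and usually 1 of the arms, named 5p and 3p, is kept in an Argonaute protein while the other is mostly degraded. The seed, bases 2 to 8 of the mature miRNA, pairs with target mRNAs and represses them. In mouse embryonic stem cells the miR-290 cluster dominates and promotes rapid cycling, whereas let-7 is held back by Lin28 and accumulates on differentiation. Wt1 encodes a zinc finger protein that binds DNA and RNA and is needed for the kidney and gonads.

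The sequences below belong to the miRNAs with large ratios in either direction and show the seeds by which they would find targets. Capitals mark the seed, and T stands for U as in the table of sequences. The first 3 were higher after 12 h of dox and the other 2, which share the let-7 seed GAGGTAG, were lower.
miR-92a-1-5p: aGGTTGGGatttgtcgcaatgct
miR-290a-3p: aAAGTGCCgcctagttttaagccc
miR-148a-5p: aAAGTTCTgagacactccgact
let-7c-5p: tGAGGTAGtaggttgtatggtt
let-7a-5p: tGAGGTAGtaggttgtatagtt

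The next set is shown because the lower miRNAs with the most negative ratios, miR-409-5p and miR-501-3p, and the most abundant lower one, miR-99b-5p, hold the same 5 bases. Capitals mark ACCCG, searched on the given strand, a word chosen after the values were seen.
miR-409-5p: aggttACCCGagcaactttgcat
miR-501-3p: aatgcACCCGggcaaggatttg
miR-99b-5p: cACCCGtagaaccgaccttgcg
miR-5122: ccgcgggACCCGgggctgtg
miR-1193-3p: taggtcACCCGttttactatc
miR-1247-5p: ACCCGtcccgttcgtccccgga
miR-342-3p: tctcacacagaaatcgcACCCGt

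Sequences are those of the deposited tables. In RefSeq on GRCm38.p6 236 of the 288 members matched by name and 235 of these also by sequence, among them every miRNA printed above. The build used by the submitters is not given in the sources used here. miR-92a-1-5p lies at chr14:115044437-115044459 on the plus strand, in an exon of the non-coding host gene Mir17hg. miR-290a-3p lies at chr7:3218674-3218697 on the plus strand, outside other annotated genes. miR-148a-5p is at chr6:51269867-51269888 on the minus strand, also outside other genes. miR-409-5p is at chr12:109743172-109743194 on the plus strand, in an intron of the non-coding gene Mirg. miR-501-3p is at chrX:7241270-7241291 on the minus strand, in an intron of Clcn5. miR-99b-5p is at chr17:17830194-17830215 on the plus strand, in an intron of Spaca6.

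The library after 12 h of dox held 1227428 uniquely matched reads and the untreated Wt1 KO library 1768862, which is 1.44 times as many. The median member had 243 reads after 12 h of dox and 306 in untreated Wt1 KO, and members held 99.7% of the reads in both. No member was at 0 in these libraries. Levels are given as CPM, the count expressed per 1000000 reads of a library size corrected with TMM (trimmed mean of M values), on which 3 counts equal 2.65 CPM after 12 h of dox and 2.13 CPM in untreated Wt1 KO. Ratios are log2 of 12 h of dox over untreated Wt1 KO. The 95% intervals in brackets are exact (Clopper-Pearson). They hold for counting error alone, because 1 library per side does not show the variation between cultures or library preparations. PCR copies cannot be told from separate molecules without molecular identifiers, so even the counting error may be larger than they show. The median interval reached 0.26 to either side of the ratio. A member is called higher or lower when its ratio is at least 1 or at most -1, a 2-fold difference, and its interval excludes 0.

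By this rule 11 of 288 members were higher (3.82% of the members) and 26 were lower (9.03%) after 12 h of dox, while 251 were neither. The minimum mean count was set on raw reads, of which untreated Wt1 KO had 1.44 times as many. A weak miRNA therefore entered more easily if its level was higher in untreated Wt1 KO. With the same scaling, no minimum gave 45 lower and 35 higher, and a minimum of 200 gave 10 lower and 4 higher. The part of the minimum in the excess of lower members, which itself depends on the scaling as given below, was not tested. The median ratio was -0.10, a value that the scaling largely sets, and 5% of members lay below -1.11 and 5% above 0.94. Only 4 members differed by more than 2 on the log2 scale: miR-92a-1-5p and miR-290a-3p were higher, and miR-409-5p and miR-501-3p were lower. Of the 26 lower members, 23 had ratios between -1 and -1.5. The split between higher and lower depends on the scaling, because many lower members lie close to the limit. Scaling by CPM of the total moved every ratio up by 0.21 and gave 27 higher and 10 lower. TMM over the 2 libraries alone moved them up by 0.14 and gave 22 higher and 14 lower. CPM that leaves out the reads of miR-290 and miR-302 clusters moved them up by 0.33 and gave 34 higher and 7 lower. All 11 higher members kept their call under each of 7 other scalings, and so did 7 of the 26 lower ones: miR-409-5p, miR-501-3p, let-7c-5p, miR-99b-5p, the joint entry miR-297c/a/b-3p, miR-669e-5p and miR-5122. CPM without miR-92a-3p moved ratios by -0.0066, and the rest of these scalings moved them up. The lowest higher ratio was 1.013, so no higher member could lose its call. The 2 directions were thus not put to a like check.

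**Figure D1:**
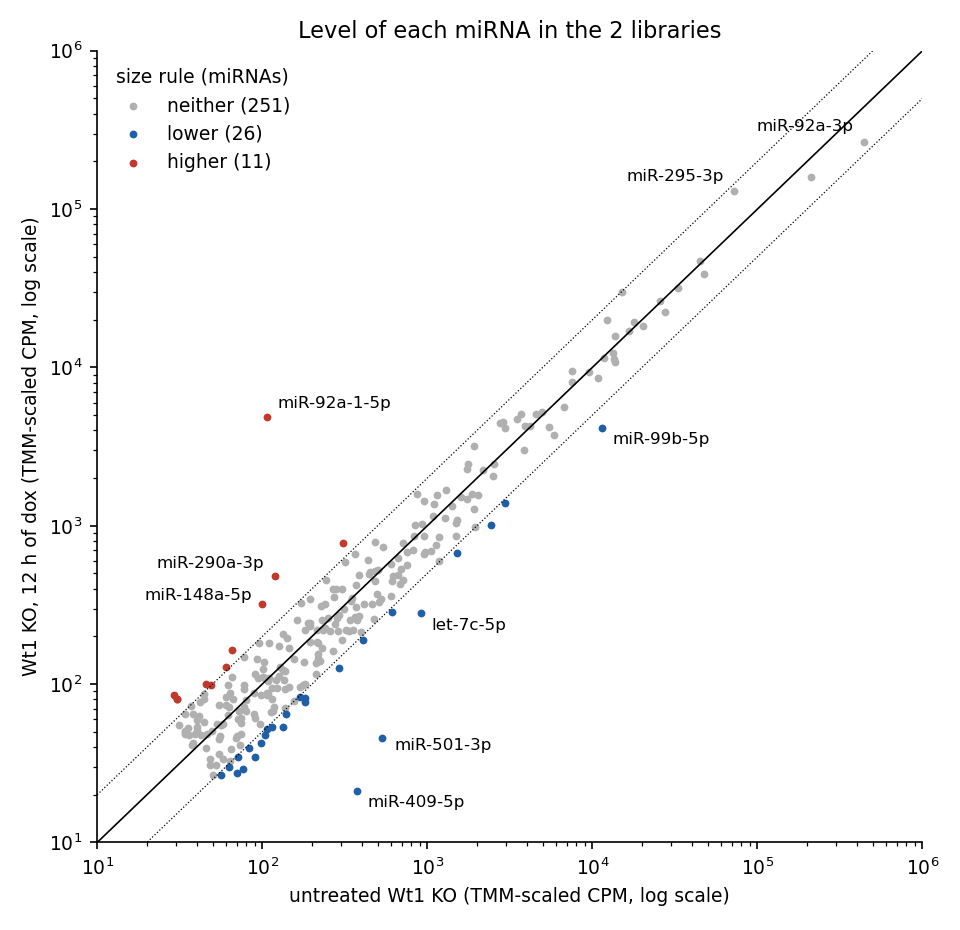
Level of each of the 288 miRNAs after 12 h of dox (y axis) against untreated Wt1 KO (x axis), both as TMM-scaled CPM on log axes. The solid line marks equal levels and the dotted lines a 2-fold difference. Most points lie along the solid line, miR-92a-1-5p stands far above it, and miR-409-5p and miR-501-3p stand far below it.

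**Figure D2:**
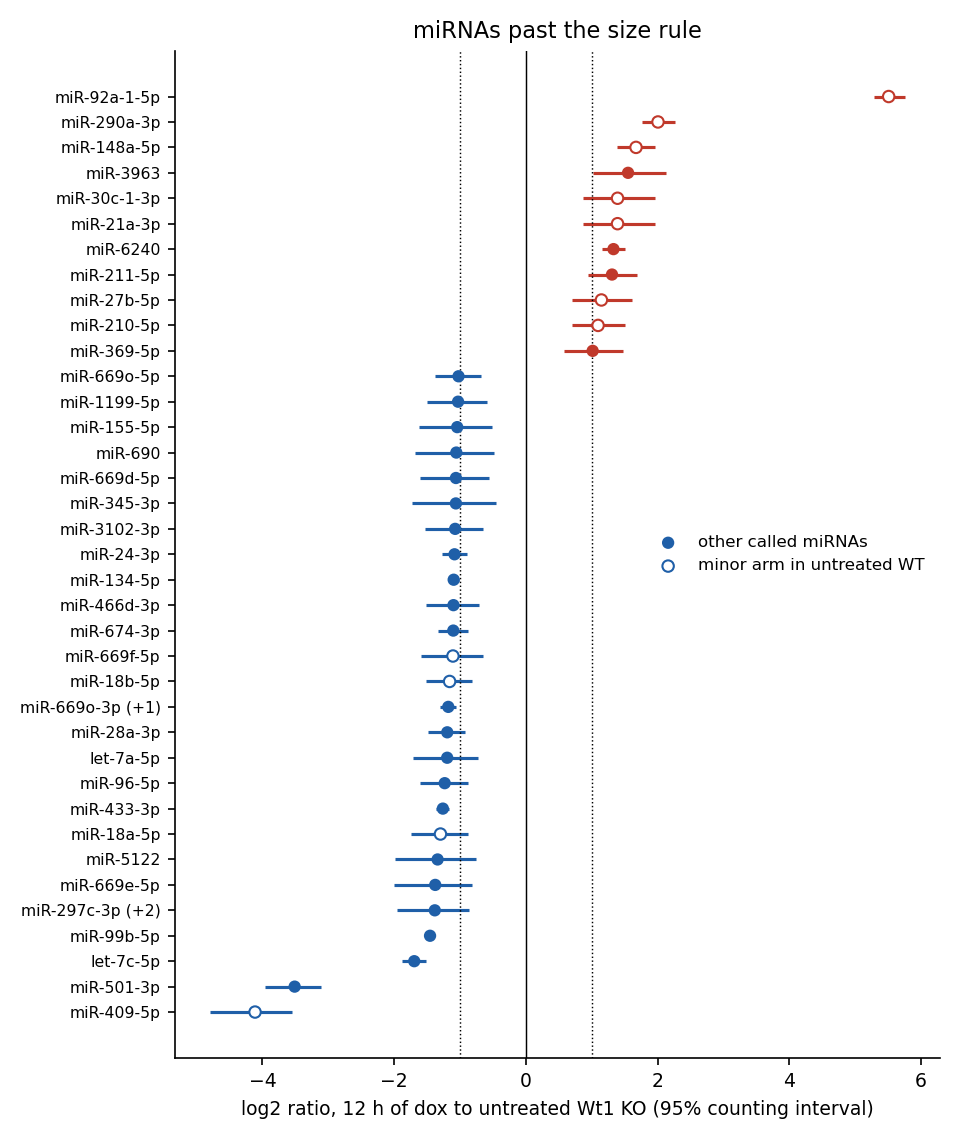
Log2 ratio of 12 h of dox to untreated Wt1 KO for the 11 higher (red) and 26 lower (blue) miRNAs, with 95% intervals for counting error. Open circles are arms with fewer reads than their partner in untreated WT, and 7 of the 11 higher miRNAs are such arms. A plus sign in brackets gives the number of further names in a joint entry.

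miR-92a-1-5p had the largest ratio of the 288 members. It is the 5p arm of a hairpin in the miR-17 to miR-92a cluster, whose 3p arm, miR-92a-3p, was the most abundant miRNA in both libraries. miR-92a-1-5p stood at 107 CPM in untreated Wt1 KO (151 reads) and 4884 CPM after 12 h of dox (5528 reads), with 1408 CPM in untreated WT and 787 CPM after 24 h of dox. The untreated Wt1 KO library was the lowest of these 4 and the 12 h library the highest. The difference was 45.5-fold, with a log2 ratio of 5.51 [5.28 to 5.76]. Over the same libraries miR-92a-3p went from 440120 to 267192 CPM, with a log2 ratio of -0.72 [-0.73 to -0.71], which did not reach the size limit. For every 1000 reads of miR-92a-3p the untreated Wt1 KO library held 0.243 reads of miR-92a-1-5p, the 12 h library 18.3, the 24 h library 3.27 and untreated WT 7.18. miR-92a-3p can also come from a second hairpin, so this ratio is not that of a single precursor.

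The other members made from the miR-17, miR-106a and miR-106b clusters did not share this difference. These clusters yield miRNAs that promote proliferation and are driven by Myc. Of their 21 members 1 was higher and 2 were lower, beside 11 (3.82%) and 26 (9.03%) of all 288. Of the 21, 16 had ratios below 0, with a median of -0.24 beside -0.10 for all members. This median changes sign under some of the other scalings. miR-18a-5p fell from 133 to 53.9 CPM, a log2 ratio of -1.30 [-1.75 to -0.88]. Its paralog miR-18b-5p, from the miR-106a cluster, fell from 182 to 81.3 CPM, a log2 ratio of -1.16 [-1.52 to -0.82]. miR-17-5p, miR-20a-5p and miR-19b-3p, which are also made in the Mir17hg cluster, had log2 ratios of -0.52, -0.42 and -0.39. miR-19b-3p can come from a hairpin of the miR-106a cluster as well. The 6 members with the miR-17 seed AAAGTGC had a median of -0.47, and none was called.

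miR-290a-3p and miR-148a-5p were the next highest ratios, and both are the arm with fewer reads than its partner in untreated WT. miR-290a-3p stood at 119 CPM in untreated Wt1 KO (168 reads) and 479 CPM after 12 h of dox (542 reads), with 220 CPM in untreated WT and 242 CPM after 24 h. Its log2 ratio was 2.00 [1.76 to 2.27], or 4.01-fold. miR-148a-5p stood at 99.9 and 319 CPM (141 and 361 reads), with 90.0 CPM in untreated WT and 181 CPM after 24 h, and a log2 ratio of 1.67 [1.39 to 1.97]. For both, the 12 h library was the highest of the 4. miR-21a-3p, the passenger of the growth-promoting miR-21a-5p, stood at 30.5 CPM in untreated Wt1 KO (43 reads) and 80.4 CPM after 12 h of dox (91 reads). Its log2 ratio was 1.39 [0.86 to 1.96]. It remained well below the untreated WT library at 558 CPM.

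miR-211-5p lies in an intron of Trpm1 and is best known from pigment cells. It stood at 65.9 CPM in untreated Wt1 KO (93 reads) and 163 CPM after 12 h of dox (185 reads), a log2 ratio of 1.31 [0.94 to 1.69]. Across the 4 libraries it was lowest in untreated WT at 13.8 CPM and highest after 24 h of dox at 228 CPM. Of the remaining higher members, miR-30c-1-3p had a log2 ratio of 1.39, miR-27b-5p of 1.15, miR-210-5p of 1.09 and miR-369-5p of 1.01. These 4 are low-count miRNAs with 43 to 85 reads in untreated Wt1 KO and 91 to 146 after 12 h of dox. miR-210 is known from hypoxia and miR-27b from lipid metabolism and blood vessels.

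The last higher members are entries reported to overlap structural RNA, rRNA or tRNA. miR-6240 stood at 308 CPM in untreated Wt1 KO and 773 CPM after 12 h of dox, a log2 ratio of 1.33 whose interval lies above 1.16. miR-3963 stood at 29.1 and 85.7 CPM (41 and 97 reads), a log2 ratio of 1.55 [1.02 to 2.12]. The other member of this list, miR-5126, had a log2 ratio of -0.60. Thus 2 of 3 were higher, beside 3.82% of all members, and the median was 1.33. The part of rRNA or tRNA fragments in the results for these entries was not tested.

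**Figure D3:**
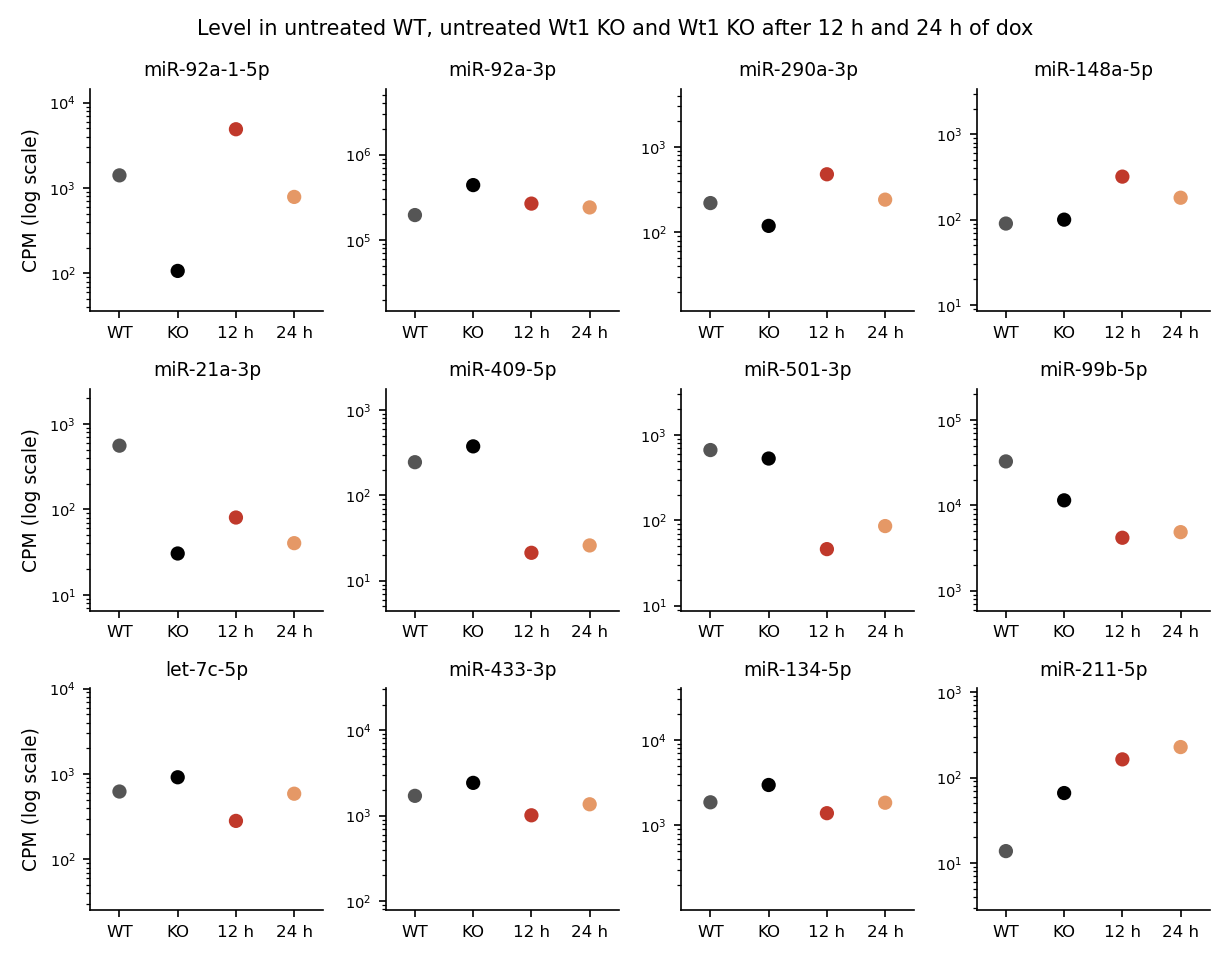
TMM-scaled CPM of 12 miRNAs in 4 libraries: untreated WT, untreated Wt1 KO (KO), and Wt1 KO with dox for 12 h or 24 h. Each panel has its own log axis of the same span. miR-92a-1-5p is lowest in untreated Wt1 KO and highest after 12 h of dox, while miR-409-5p and miR-501-3p are lower in both libraries with dox than in both without.

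miR-409-5p and miR-501-3p had the most negative ratios. miR-409-5p is an arm of a hairpin in the imprinted Dlk1-Dio3 locus, whose miRNAs are transcribed from the maternal chromosome. It stood at 374 CPM in untreated Wt1 KO (528 reads) and 21.2 CPM after 12 h of dox (24 reads), with 244 CPM in untreated WT and 25.9 CPM after 24 h of dox. The library was 17.3-fold lower with 12 h of dox, a log2 ratio of -4.11 [-4.80 to -3.55]. miR-501-3p is cut from an intron of the chloride channel gene Clcn5. It stood at 529 CPM in untreated Wt1 KO (746 reads) and 45.9 CPM after 12 h of dox (52 reads), with 665 CPM in untreated WT and 85.5 CPM after 24 h. The log2 ratio was -3.51 [-3.96 to -3.12], or 11.4-fold lower. For both, the libraries with dox lay below those without.

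Neighbours of these 2 miRNAs in the genome did not differ to that extent. miR-409-3p, the other arm of the same hairpin, went from 13776 to 10743 CPM, a log2 ratio of -0.36 [-0.39 to -0.33]. The partner of miR-501-3p, miR-501-5p, had too few reads to be a member. Of the 4 members of the Clcn5 intron cluster, miR-501-3p alone was called, and miR-532-5p, miR-532-3p and miR-188-5p had log2 ratios of 0.20, -0.34 and -0.51. Of the 55 members from the Dlk1-Dio3 locus 1 was higher, 3 were lower and 51 were neither. Of all 288 members 3.82% were higher and 9.03% lower. The median of the locus was -0.14, which changes sign under some of the other scalings. The locus took 26.6% of reads in untreated Wt1 KO (Wilson interval 26.5 to 26.6) and 25.5% after 12 h of dox (25.4 to 25.6).

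The other lower members of the Dlk1-Dio3 locus were more abundant and closer to the limit. miR-433-3p stood at 2417 CPM in untreated Wt1 KO (3411 reads) and 1008 CPM after 12 h of dox (1141 reads), a log2 ratio of -1.26 [-1.36 to -1.16]. miR-134-5p, studied mainly in neurons, stood at 2972 and 1389 CPM, a log2 ratio of -1.10 [-1.18 to -1.01]. miR-134-5p kept its call in 2 of the 7 other scalings and miR-433-3p in 6. miR-127-3p, the most abundant miRNA of the locus, had a log2 ratio of -0.39 and was second in level in both libraries.

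miR-99b-5p was the most abundant lower member. It stood at 11429 CPM in untreated Wt1 KO (16127 reads) and 4166 CPM after 12 h of dox (4715 reads), with 32644 CPM in untreated WT and 4847 CPM after 24 h. Its log2 ratio was -1.46, with an interval that ends at -1.41, or 2.74-fold lower. It is transcribed together with let-7e and miR-125a, whose 5p arms had log2 ratios of -0.80 [-1.26 to -0.36] and -0.26 [-0.30 to -0.21]. The other arm of its hairpin, miR-99b-3p, had a ratio of -0.17 [-0.52 to 0.17], an interval that includes 0. Of these 4 arms miR-99b-5p alone reached the size limit.

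The let-7 family, which promotes differentiation and is scarce in these stem cells, had the lowest median of the lists with 3 or more members. Its entries together took 0.101% of reads in untreated Wt1 KO (0.0963 to 0.106) and 0.0470% after 12 h of dox (0.0433 to 0.0510). After 24 h of dox the share was 0.0913% (0.0883 to 0.0945). All 4 members had ratios below 0, with a median of -0.996, and 2 were lower by the rule, beside 9.03% of all members. let-7c-5p stood at 914 CPM in untreated Wt1 KO (1290 reads) and 282 CPM after 12 h of dox (319 reads), with 622 CPM in untreated WT and 587 CPM after 24 h. Its log2 ratio was -1.70 [-1.88 to -1.52]. The 12 h library was the lowest of the 4. let-7a-5p stood at 97.8 and 42.4 CPM (138 and 48 reads), a log2 ratio of -1.20 [-1.71 to -0.72]. At 24 h against untreated Wt1 KO, let-7c-5p had a log2 ratio of -0.64, let-7a-5p of -0.14 [-0.43 to 0.17] and let-7e-5p of 0.28. let-7i-5p, with 78 and 53 reads, had a ratio of -0.24 and an interval that includes 0. The family's median stayed below 0 under all 7 other scalings, the highest being -0.67.

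The Sfmbt2 intron cluster held the largest number of lower members of the 30 lists. It is a rodent array of many near-identical hairpins of the miR-297, miR-466, miR-467 and miR-669 families. Of its 25 members 7 were lower, beside 26 of all 288 (9.03%), none was higher, and 22 had ratios below 0. Among these 7 lower members only the joint entry miR-297c/a/b-3p and miR-669e-5p kept their call under all 7 other scalings. miR-669d-5p and miR-669o-5p kept it under 1. The median was -0.76, and it stayed between -0.77 and -0.43 under the other scalings. The joint entry miR-669o/a-3p stood at 1523 CPM in untreated Wt1 KO (2149 reads) and 672 CPM after 12 h of dox (761 reads), a log2 ratio of -1.18 [-1.30 to -1.06]. The joint entry miR-297c/a/b-3p stood at 90.7 and 34.5 CPM, a log2 ratio of -1.38 [-1.95 to -0.87]. In contrast miR-467d-5p, with 1607 and 1767 reads, had a ratio of 0.45 [0.36 to 0.55]. Near-identical members can take each other's reads or lose them to multi-matches, so the values of single members are uncertain and the members are not independent of each other.

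**Figure D4:**
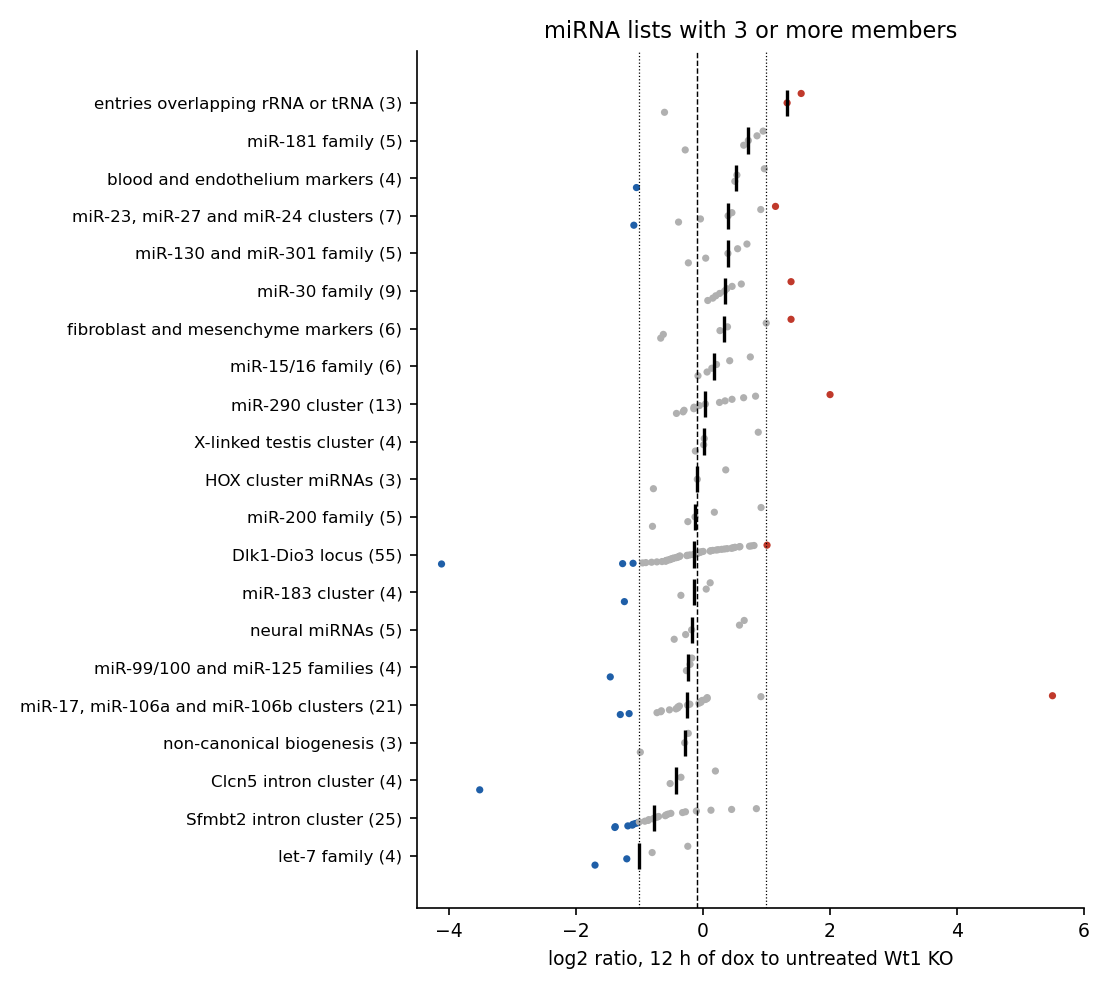
Log2 ratios of members (points) in each miRNA list with 3 or more members, whose number is in brackets, with the list median as a bar. Red points are higher and blue points lower by the size rule, the dotted lines mark ratios of -1 and 1, and the dashed line is the median of all 288 members, -0.10. The let-7 and Sfmbt2 lists have the lowest medians and the entries overlapping rRNA or tRNA the highest.

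With TMM over the 6 libraries, the miRNAs most typical of embryonic stem cells differed less than 2-fold with the exception of miR-290a-3p. The miR-290 cluster took 16.8% of reads in untreated Wt1 KO (16.8 to 16.9) and 23.4% after 12 h of dox (23.4 to 23.5). Of its 13 members 7 had ratios above 0 and 6 below, with a median of 0.04. Most of the difference in share lay in 1 member, miR-295-3p. It went from 102465 to 146295 reads and from 5.79% to 11.9% of the library, a log2 ratio of 0.83 [0.82 to 0.84]. With CPM of the total, which moved every ratio up by 0.21, miR-295-3p passed the limit. miR-294-3p, miR-292a-3p and miR-292a-5p had ratios of -0.14, -0.31 and -0.29. Both members of the related miR-302 cluster, which marks a later pluripotent state, had ratios above 0: miR-302a-3p 0.92 and miR-302d-3p 0.43. The 10 entries of this cluster together held only 227 reads in untreated Wt1 KO and 319 after 12 h of dox. Of these miR-302d-3p had 144 and 156, and the median interval of the 2 members reached 0.44 to either side. The 5 members that share the seed AAGTGCT across these clusters had a median of 0.64.

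In the miR-181, miR-30 and miR-130 families most ratios were above 0 but, with TMM over the 6 libraries, below the limit. miR-181 miRNAs act in blood cell development, and 4 of the 5 members had ratios above 0, with a median of 0.72. miR-181a-5p stood at 364 CPM in untreated Wt1 KO and 659 CPM after 12 h of dox, a ratio of 0.86 [0.69 to 1.02], with 5558 CPM in untreated WT. The exception was miR-181d-5p at -0.28. All 9 members of the miR-30 family, which is abundant in kidney and heart, had ratios above 0, from 0.08 to 1.39, with a median of 0.34. The 5 members of the miR-130 and miR-301 family had a median of 0.40. The direction of these medians held under all 7 other scalings, but these moved ratios up or, at the lowest, by -0.0066. With TMM over the 6 libraries only miR-30c-1-3p among these 19 members was called. With CPM that leaves out miR-290 and miR-302 reads the miR-181 median was 1.05, past the size limit.

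Lists of kidney and other tissue miRNAs gave few called members. Of 11 entries in the kidney-enriched list 2 were members: miR-211-5p, given above as best known from pigment cells, and miR-192-5p. The latter had 109 and 169 reads and a log2 ratio of 0.95 [0.59 to 1.31]. The neural list had 5 members and a median of -0.17, and the HOX cluster list had 3 members and a median of -0.09. No member of either was called, and both medians change sign with the scaling. In the miR-183 cluster, known from sensory organs, miR-96-5p fell from 181 to 76.9 CPM, a log2 ratio of -1.23 [-1.61 to -0.88]. The abundant miR-182-5p and miR-183-5p of that cluster had ratios of 0.05 and -0.34. Of the miR-23, miR-27 and miR-24 clusters, miR-24-3p was lower at -1.08 [-1.27 to -0.90] and miR-27a-3p, whose hairpin is clustered with a copy of miR-24, had a ratio of 0.91.

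Markers of other cell types were also compared, since a culture can hold differentiated cells. The 15 fibroblast and mesenchyme entries together took 1.28% of reads in untreated Wt1 KO (1.27 to 1.30), 2.87% after 12 h of dox (2.84 to 2.90) and 6.35% in untreated WT. Nearly all of these reads were of 1 entry, miR-22-3p, and the other 14 entries took 0.0794% of reads in untreated Wt1 KO (0.0753 to 0.0836) and 0.0885% after 12 h of dox (0.0834 to 0.0939). Of the 6 members, miR-21a-3p was higher and miR-22-3p lay at the limit, with 21282 and 34138 reads and a ratio just under 1.00 [0.97 to 1.02]. miR-31-5p and miR-221-3p had ratios of -0.62 and -0.66, and miR-21a-5p and the joint entry miR-199b/a-3p ratios of 0.39 and 0.27. Of the 4 members among blood and endothelium markers miR-155-5p was lower, at -1.04 [-1.63 to -0.51], and miR-126a-3p, an endothelial miRNA with 52 and 82 reads, had a ratio of 0.97. The single members among muscle and endoderm markers, miR-143-3p and miR-375-3p, had ratios of 0.47 and 0.28. The 15 blood and endothelium entries together took 0.247% of reads in untreated Wt1 KO and 0.403% after 12 h of dox, and 7 of them were at 0 in each. Here miR-150-5p, a lymphocyte miRNA with a ratio of 0.51 [0.45 to 0.57], held 4144 of 4372 and 4720 of 4944 reads. The other 14 entries took 0.0129% (0.0113 to 0.0147) and 0.0182% (0.0160 to 0.0208). The 19 muscle and mesoderm entries took 0.0374% and 0.0591%, nearly all of it miR-143-3p, with 15 and 14 at 0, and the 4 endoderm entries 0.00481% and 0.00676%, with 3 at 0 in each. Entries at 0 in both libraries included miR-1a-3p and miR-206-3p of muscle, miR-451a and miR-223-3p of blood, miR-214-3p of mesenchyme and miR-122-5p of liver. Other entries of these lists had reads, among them the mesenchyme member miR-199b/a-3p. In bulk libraries fewer cells of a type and less RNA per cell cannot be told apart, and the part of other cell types in these results was not tested.

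The arms of one hairpin often moved apart, and this comparison does not depend on the scaling. Both arms were members in 57 pairs. The median distance between the arms' log2 ratios was 0.52, 42 pairs were less than 1 apart and 15 were 1 or more apart. In none of the 57 pairs were both arms called, but only 37 of all 288 members were called, so such pairs would be few in any case. miR-30c-5p enters the pairs with both miR-30c-1-3p and miR-30c-2-3p. miR-24-3p, paired with miR-24-2-5p, can also come from another hairpin. The 5p arm exceeded the 3p arm by 6.23 [5.99 to 6.46] for miR-92a, by 1.76 [1.46 to 2.06] for miR-148a and by 1.65 [1.25 to 2.05] for miR-28a. It was lower than the 3p arm for miR-409, at -3.75 [-4.35 to -3.16], for miR-290a, at -2.14 [-2.42 to -1.87], and for miR-18a, at -1.37 [-1.84 to -0.89]. In the miR-290a hairpin there were 7982 reads of the 5p arm for every 1000 of the 3p arm in untreated Wt1 KO and 1804 after 12 h of dox.

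**Figure D5:**
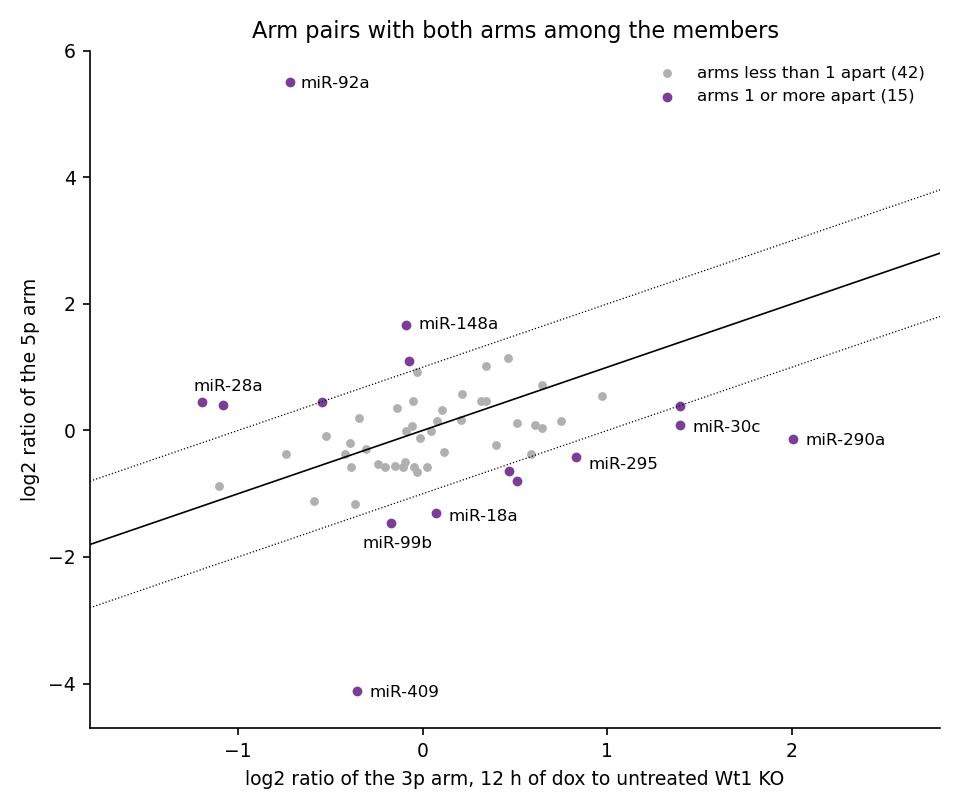
Log2 ratio of 12 h of dox to untreated Wt1 KO for the 3p arm (x axis) and the 5p arm (y axis) of 57 pairs. The solid line marks equal ratios and the dotted lines a distance of 1. Of the pairs, 15 lie on or outside the dotted lines, with miR-92a and miR-409 farthest out.

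The called members were unevenly spread between the arms of their hairpins. An arm was taken as minor where it had fewer reads than its partner in untreated WT, a library that neither side of the comparison uses. Of 57 minor arms 7 were higher (12.3%), beside 2 of 203 major arms (0.985%). Of minor arms 4 were lower (7.02%), beside 17 of the major arms (8.37%). The 7 higher minor arms were miR-92a-1-5p, miR-290a-3p, miR-148a-5p, miR-21a-3p, miR-30c-1-3p, miR-27b-5p and miR-210-5p. Minor arms had fewer reads, a median of 175 over the 2 libraries against 335 for major arms, so their ratios have wider intervals. The minimum count also used the 2 libraries compared. miR-21a-3p and miR-30c-1-3p each had 43 reads in untreated Wt1 KO and passed it through their 91 reads after 12 h of dox. The lower minor arm miR-409-5p, with 528 and 24 reads, passed it through untreated Wt1 KO. The parts of read number and of the minimum in this difference were not tested.

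Members holding ACCCG had low ratios, as a description of a word picked for its values. The word occurs in 7 of the 288 members (2.43%) and in 17 of all 1899 entries (0.895%). Of the 7, miR-409-5p, miR-501-3p, miR-99b-5p and miR-5122 were lower, with ratios of -4.11, -3.51, -1.46 and -1.34. miR-1193-3p came close at -0.95 [-1.35 to -0.57]. miR-1247-5p and miR-342-3p had ratios of -0.03 and 0.14. The median of the 7 was -1.34, the lowest among 451 words of 5 bases that at least 5 members hold. As the word was picked from these same ratios, its rank has no weight as a test. The reverse complement CGGGT was in 1 member and 21 entries. Base composition as a whole showed little relation to the ratio: Spearman's rho with GC content was -0.08 across the 288 members, which share libraries and are not independent.

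Set beside the other libraries, the called members followed several patterns. The comparisons of 12 h and of 24 h of dox with untreated Wt1 KO, and of untreated Wt1 KO with WT, share libraries, so their ratios are given side by side only. miR-92a-1-5p had log2 ratios of 5.51 at 12 h, 2.87 at 24 h and -3.71 for Wt1 KO against WT. miR-409-5p had -4.11, -3.85 and 0.61, and miR-501-3p had -3.51, -2.63 and -0.33. let-7c-5p had -1.70 at 12 h, -0.64 at 24 h and 0.55 for Wt1 KO against WT. miR-99b-5p had -1.46, -1.24 and -1.51, so that each library with dox lay below untreated Wt1 KO, which itself lay below WT. Between the libraries with dox, miR-92a-1-5p was lower at 24 h than at 12 h by a log2 ratio of -2.63 [-2.70 to -2.57], and let-7c-5p was higher by 1.06 [0.89 to 1.23].

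Members near the minimum count show what it leaves out. Just inside it were miR-324-5p, miR-466k and miR-1934-5p, with mean counts of 50 to 51 and log2 ratios of 0.15, -0.91 and 0.15. Just outside were miR-136-5p, miR-877-5p and miR-493-3p, with mean counts of 48.5, 47.5 and 47.5 and ratios of 0.29, -0.85 and -0.08.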

How the data were processed

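Per the file headers, the deposited tables give for each mature miRNA the counts of reads that matched uniquely and of reads that matched several entries. Which aligner, miRBase version, genome build and read filters the authors used was not given in the sources used here. Unique-match counts were used as deposited. Reads with several matches made up 0.262% of untreated Wt1 KO and 0.240% of 12 h of dox and entered 1 alternative. TMM factors came from edgeR 4.0.16 (R 4.3.3) over the 6 libraries, on entries averaging 50 counts or more there, with full library totals. Log2 ratios used a prior count of 0.5 per library, and intervals the exact conditional binomial (scipy 1.17.1). No test was made, because 1 library per side leaves edgeR no spread to estimate. The ratio script was tested on simulated counts. Alternatives were other scalings (including DESeq2 1.42.0 size factors), minimum counts, prior counts, multi-matches and size limits.

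Lists were written by precursor, and each arm of a precursor counts. The members, lists and rules were chosen with earlier results of these data known. Named miRNAs are up to 15 higher and 15 lower members whose interval bound lies farthest from 0, the 10 most abundant members, up to 4 of the most abundant members of each list, and members next to the minimum count. Others (such as miR-5122, partner arms, ACCCG holders and members of the miR-17 clusters) were chosen after their values were seen. Positions are RefSeq matches on GRCm38.p6 with GENCODE gene models. The library of Wt1 KO with retinoic acid is shallow (83626 reads) and enters only the scaling.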

Additional observations from a re-analysis of the deposited data

Results flagged for a closer look

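For 3 called miRNAs the library after 24 h of dox lay on the other side of untreated Wt1 KO than the library after 12 h. Both ratios use the same untreated Wt1 KO library, and the difference was not tested. miR-155-5p, an immune cell miRNA, had 101 reads in untreated Wt1 KO, 39 after 12 h and 320 after 24 h, and log2 ratios of -1.04 at 12 h and 0.39 at 24 h. miR-669o-5p, of the Sfmbt2 intron cluster, had 239, 94 and 732 reads and ratios of -1.02 and 0.34. miR-3963, an entry reported to overlap structural RNA, had 41, 97 and 51 reads and ratios of 1.55 and -0.96.

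A signal also appeared among reads that matched several entries, which the comparison does not use. miR-466d-5p and miR-466n-5p each list 36 such reads in untreated Wt1 KO and 92 after 12 h of dox, a log2 ratio of 1.66 [1.10 to 2.27] for both. The counts at both entries are equal, and whether they are the same reads was not tested. Uniquely matched reads of miR-466d-5p went from 9 to 48, too few for a member, while its partner miR-466d-3p was lower at -1.10.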

How the results depend on the processing

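Beside 11 higher and 26 lower, the counts were 22 and 14 with TMM over the 2 libraries, 27 and 10 with CPM of the total, and 34 and 7 with CPM that leaves out miR-290 and miR-302 reads, where the median ratio moved to 0.23. TMM over all entries gave 20 and 16, and TMM over the 4 libraries without retinoic acid 22 and 14. These last 2 scalings were chosen after seeing the data. A scaling moves all ratios together, so higher calls are gained as lower ones are lost. Median of ratios gave 15 and 20, and CPM without miR-92a-3p 11 and 28. A minimum mean count of 10 gave 25 higher and 39 lower, no minimum 35 and 45, and 200 gave 4 and 10, since other numbers of entries were compared. A 1.5-fold limit gave 41 and 64, a 4-fold limit 2 and 2, and asking the whole interval to lie past 2-fold 5 and 7. A smaller and a larger prior count gave 11 and 27, and 11 and 26, and adding multi-matches 12 and 27. No result reversed after being called. Over the 7 other scalings the 26 lower members lost 75 of 182 calls. For 119 miRNAs, those named by rule and those called, and 29 list medians, 1871 values were recomputed: 1452 stayed the same, 298 moved, 44 passed the limit anew and 77 no longer passed it. Calls gained by other members are not in this tally but are in the counts above. No replicate could be left out with 1 library per side. No paired analysis was possible because the result comes from no test and each group has 1 library. Depth limits members near the minimum, whose intervals reach up to 0.65 to either side.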

Other observations

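Values not given above include some members of the lists and 1 called miRNA outside them. miR-150-5p of the blood list stood at 824 CPM in untreated WT, 2937 CPM in untreated Wt1 KO, 4170 CPM after 12 h of dox and 3239 CPM after 24 h. miR-10b-5p of the HOX list had a ratio of 0.36 at 12 h and 1.34 at 24 h, with 128, 132 and 782 reads in untreated Wt1 KO, 12 h and 24 h. miR-320-3p, made without Drosha, stood at 1184 CPM in untreated Wt1 KO and 599 CPM after 12 h, a ratio of -0.98 [-1.11 to -0.85], just short of the limit. The other members of non-canonical biogenesis, miR-877-3p and miR-484, had ratios of -0.28 and -0.23. miR-28a-3p, a called member in none of the lists, fell from 290 to 126 CPM, a ratio of -1.19 [-1.48 to -0.92], while its partner miR-28a-5p went from 179 to 197 reads, a ratio of 0.46.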
